A study of Mus musculus with 4 samples.

Results

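The egg coat genes Zp1, Zp2 and Zp3 and the genes of the oocyte-secreted proteins GDF9, BMP15 and OOSP1 were followed across ovaries and ovarian tumors of the mouse. They were found as every probe set that the platform annotation assigns to 1 of these 6 symbols alone, which gave 8 probe sets of 45101 on the array, 3 of them for Bmp15. All 6 genes passed the filter on low signals and were among the 11748 genes tested, each read from its brightest probe set.

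Tissue came from C57BL/6 female mice, all carrying floxed alleles of Esr1, the gene of estrogen receptor α. ERα f/f mice, the controls, gave ovary. ERα d/d mice, which also carry Cre recombinase knocked into 1 allele of the progesterone receptor gene, gave ovarian tumor. This Cre acts where the progesterone receptor is made, which includes the pituitary, the uterus, the oviduct, the mammary gland and the corpora lutea, and it is not specific to the ovary or to any cell type in it. Each tissue was taken at 5 months and at 10 months, and RNA of 3 mice was pooled for each of the 4 arrays, so that each genotype at each age is 1 array and the spread between mice was not measured. Titles and source names give these ages, while a further label field gives 5 months for both ovaries and 10 months for both tumors. The titles are followed here, and under the other field age and genotype could not be told apart.

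The growing oocyte surrounds itself with the zona pellucida, an extracellular coat of the glycoproteins ZP1, ZP2 and ZP3. ZP2 and ZP3 form its filaments, ZP1 cross-links them, and ZP2 carries the region to which sperm bind. The same oocyte secretes GDF9 and BMP15, ligands of the TGFβ family that act on the surrounding granulosa cells through BMPR2 and type I receptors and SMAD proteins. OOSP1 is a small secreted protein of the oocyte whose action is less well described. All of these RNAs are made in oocytes within follicles, and FIGLA, NOBOX and LHX8 are transcription factors known for activating such genes in the oocyte. Their levels in a piece of ovary therefore depend on how many oocytes it holds as well as on the RNA in each. In pooled tissue fewer oocytes and less RNA per oocyte cannot be told apart.

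Promoters are shown because all 6 genes were lowest on the same array and because FIGLA binds the E-box CANNTG. The RefSeq promoter table of GRCm38.p6 held 3 of the 6 genes. For each, the 250 bases before the start of the gene are printed 5′ to 3′ on the strand of the gene, with every match, on either strand, to CANNTG, to the NOBOX elements TAATTG or TAGTTG, or to the LHX8 element TGATTG in capitals:
Zp3 (chr5:135979855-135980104, plus strand): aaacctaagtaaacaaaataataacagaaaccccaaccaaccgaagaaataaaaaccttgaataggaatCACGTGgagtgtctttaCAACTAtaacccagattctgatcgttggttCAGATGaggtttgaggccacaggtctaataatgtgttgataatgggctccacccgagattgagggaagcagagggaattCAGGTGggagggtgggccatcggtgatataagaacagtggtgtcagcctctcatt
Bmp15 (chrX:6320725-6320974, minus strand): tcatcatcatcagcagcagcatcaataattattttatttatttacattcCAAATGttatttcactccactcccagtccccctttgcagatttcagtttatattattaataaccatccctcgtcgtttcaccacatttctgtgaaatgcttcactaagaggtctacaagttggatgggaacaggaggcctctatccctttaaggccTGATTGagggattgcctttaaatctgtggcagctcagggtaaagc
Oosp1 (chr19:11691052-11691301, minus strand): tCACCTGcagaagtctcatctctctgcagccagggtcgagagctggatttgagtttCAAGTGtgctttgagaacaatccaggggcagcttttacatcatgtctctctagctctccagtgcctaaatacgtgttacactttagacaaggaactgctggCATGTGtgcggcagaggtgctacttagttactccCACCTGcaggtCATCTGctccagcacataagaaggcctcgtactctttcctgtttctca
The 4 motifs do not overlap in these stretches. Zp3 had an E-box CACGTG at 181 to 176 bases before the start, CAGATG at 134 to 129 and CAGGTG at 55 to 50, and a further CAGCTG just after the start. Its CAACTA at 164 to 159 is TAGTTG read on the opposite strand. Bmp15 had 1 E-box, CAAATG, at 201 to 196 bases before the start, and 1 TGATTG at 45 to 40. Oosp1 had 5 E-boxes, of which the nearest to the start was CATCTG at 48 to 43. TAATTG occurred in none of the 3. Over the 300 bases from 250 before to 50 after the start, CANNTG matched in 72.3% of the 32851 promoters in the table, TAGTTG in 6.59%, TGATTG in 14% and TAATTG in 8%. An E-box is thus common among promoters, and the matches are a description, not sites shown to be bound.

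Each array had been scaled to a mean of 150.0 after the lowest and highest 2% of values were set aside, and array medians lay between 34.6 and 39.4. The median signal is taken here as the level under which a probe set is not read. Esr1, the floxed gene, gave a signal of 2232 in the 5-month ovary, 2492 in the 10-month ovary, 431 in the 5-month tumor and 697 in the 10-month tumor; which part of the gene its probes read was not analysed here. The ratio of 3′ to 5′ signal of the Gapdh control probes, a measure of RNA integrity, was between 1.09 and 1.13 on 3 arrays and 1.41 in the 10-month tumor, and that of the actin probes was 2.33 to 2.52 on the same 3 arrays and 2.96 in the 10-month tumor. The array on which the egg genes were low thus also had the highest ratios, and their part in the result was not tested. Of 11748 genes, 872 lay at least 2-fold apart between the tumors of the 2 ages and 108 between the ovaries.

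In the 5-month tumor Zp1, Zp2, Gdf9 and Bmp15 differed from the ovary of that age by -0.05 to 0.0012 on the log2 scale, and Zp3 and Oosp1 were higher by 0.29 and 0.41. By their measured signals all 6 were at least 2-fold lower in the 10-month tumor than in the 10-month ovary. The median log2 difference of tumor from ovary was -0.0038 at 5 months and -1.90 at 10 months, against -0.019 and -0.016 over all genes tested. At 10 months, 6 of 6 genes were at least 2-fold lower in tumor, against 6.00% of all genes, and at 5 months 0 of 6, against 5.96%. These are single arrays and carry no test. When dim signals were raised to the median of their array, 4 of 6 were at least 2-fold lower at 10 months, against 4.05% of all genes, and Zp1 and Bmp15 were not. Counts with dim signals raised, here and for the lists, were added after the data were seen. By measured signals each was also at least 2-fold below the lowest of the other 3 arrays, as were 2.13% of all genes, and with dim signals raised 4 of 6 were, against 0.919%.

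**Figure D1:**
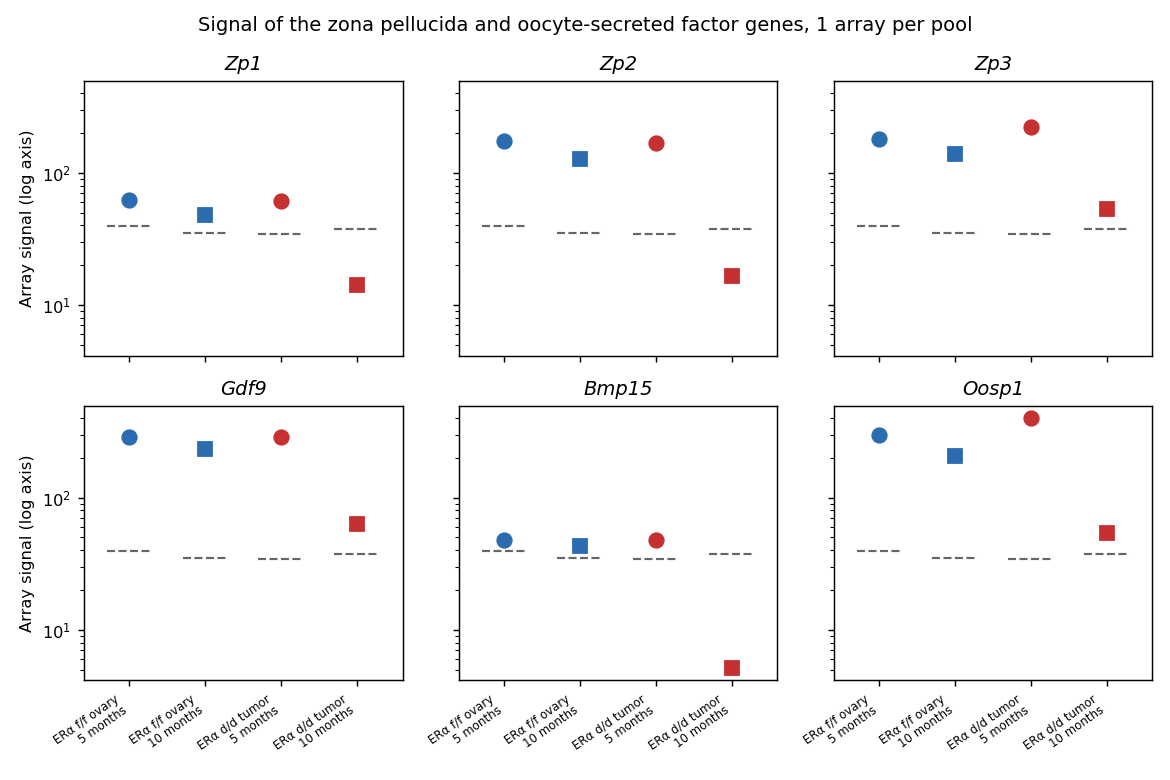
Signal of the probe set read for each gene on each of the 4 arrays (log axis), 1 point an array and no error since each is 1 pool of 3 mice; dashed lines mark each array's median. In every gene the 10-month tumor lies below the other 3 arrays.

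Of the zona pellucida genes, Zp2 gave a signal of 174.8 and 127.5 in the ovaries at 5 and 10 months, 168.5 in the 5-month tumor and 16.4 in the 10-month tumor. The 5-month tumor lay between the ovaries, and the 10-month tumor lay under its array's median. Its fold is therefore a bound, and Zp2 was at least 3.41-fold higher in the 10-month ovary, and at least 4.51-fold higher in the 5-month tumor, than in the 10-month tumor. Zp3 gave 180.1 and 139.6 in the ovaries, 220.4 in the 5-month tumor and 53.4 in the 10-month tumor. Zp3 stayed above the median on all 4 arrays, so its fold is measured: it was 2.62-fold lower in the 10-month tumor than in the ovary of that age. Zp1, the cross-linking component and the dimmest of the 3, gave 61.9 and 47.9 in the ovaries, 61.2 in the 5-month tumor and 14.1 in the 10-month tumor. The last was under the array median, which leaves at least 1.28-fold at 10 months. Over both ovaries and the 5-month tumor, the highest signal was 1.29 times the lowest for Zp1, 1.37 times for Zp2 and 1.58 times for Zp3.

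Of the ligands of the TGFβ family, Gdf9 gave a signal of 288.7 and 234.4 in the ovaries, 287.0 in the 5-month tumor and 63.3 in the 10-month tumor. It was above the median on all 4 arrays and 3.70-fold lower in the 10-month tumor than in the ovary of the same age. Bmp15, whose product can pair with GDF9, was close to the array median even in the ovaries. Its probe set read here gave 47.7 and 42.9 in the ovaries, 47.7 in the 5-month tumor and 5.16 in the 10-month tumor, and the bound at 10 months was at least 1.15-fold. The other probe sets of Bmp15 gave between 5.41 and 15.7, and between 0.467 and 14.3, and were under the median on all 4 arrays. Over both ovaries and the 5-month tumor, the highest signal was 1.23 times the lowest for Gdf9 and 1.11 times for Bmp15.

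Oosp1 gave a signal of 298.9 and 205.8 in the ovaries, 397.8 in the 5-month tumor and 54.4 in the 10-month tumor. As for Zp3, the 5-month tumor lay above both ovaries, and Oosp1 was 3.78-fold lower in the 10-month tumor than in the 10-month ovary. Against the 5-month tumor it was 7.31-fold lower. The related genes Oosp2 and Oosp3, chosen after their values were seen, gave 47.8, 47.2, 52.9 and 10.3, and 92.1, 75.7, 105 and 26.1, in the 5-month and 10-month ovary and the 5-month and 10-month tumor. Both had the same order, with the 10-month tumor lowest. There both were under the array median, which leaves at least 1.26-fold for Oosp2 and 2.02-fold for Oosp3 against the 10-month ovary.

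**Figure D2:**
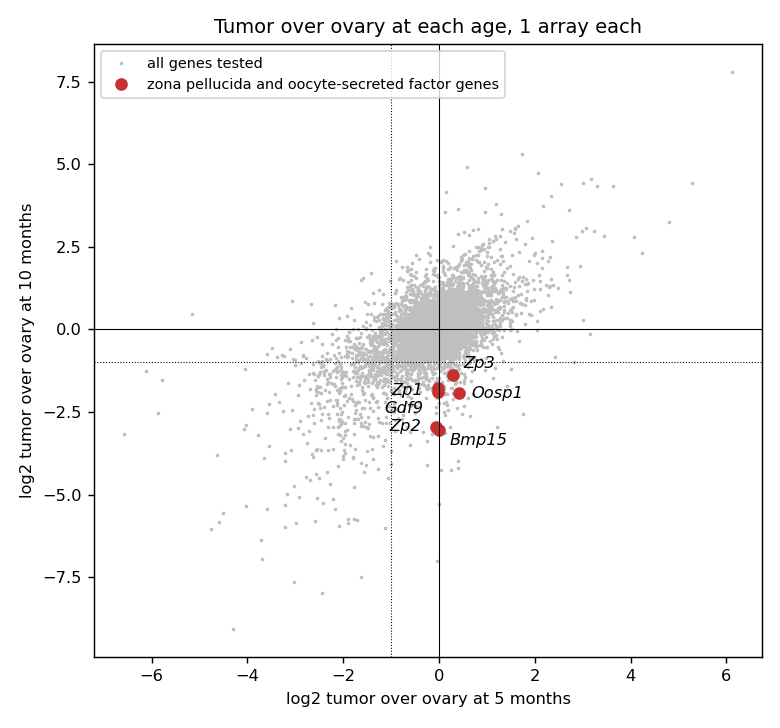
Log2 tumor over ovary at 5 months (horizontal) and 10 months (vertical) for all genes tested, with the 6 genes marked. They lie between -0.05 and 0.41 on the horizontal axis and between -3.06 and -1.39 on the vertical one, where Zp1, Zp2 and Bmp15 rest on a tumor signal under the array median.

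In the fit that took the 2 tumors as replicates, no gene of the 6 passed. The mean log2 difference of tumor from ovary was -0.89 ± 0.74 (SE) for Zp1, -1.50 ± 1.09 for Zp2, -0.55 ± 0.68 for Zp3, -0.95 ± 0.71 for Gdf9, -1.53 ± 1.1 for Bmp15 and -0.75 ± 0.94 for Oosp1, with limma adjusted p = 0.586, 0.529, 0.715, 0.541, 0.525 and 0.717. In this fit 1.77% of all genes passed. At an unadjusted p under 0.05 the count was also 0 of 6, against 18.5% of all genes. For these genes the log2 difference of the 10-month from the 5-month tumor was between -3.36 and -2.05, and that of the ovaries between -0.54 and -0.15. A value that misses the threshold with 2 arrays a group does not show that levels are alike.

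Setting each tumor array alone against both ovaries separated the ages. A lone tumor array has no measured spread, and the tumors differed more between ages than the ovaries did. Only log2 differences are therefore given for these genes. For the 10-month tumor, all 6 genes were lower than the ovaries, against 11.6% of all genes that passed as lower. The log2 difference was -1.95 ± 0.41 for Zp1, -3.18 ± 0.29 for Zp2, -1.57 ± 0.23 for Zp3, -2.04 ± 0.19 for Gdf9, -3.13 ± 0.54 for Bmp15 and -2.19 ± 0.23 for Oosp1. The log2 values of Zp1, Zp2 and Bmp15 rest on a 10-month tumor signal under the array median. For the 5-month tumor the log2 difference was above 0 in all 6 genes, and largest for Oosp1 at 0.68 ± 0.20. Zp1, Zp2, Zp3, Gdf9 and Bmp15 gave 0.17 ± 0.31, 0.17 ± 0.21, 0.47 ± 0.19, 0.14 ± 0.16 and 0.077 ± 0.34. The spread of mice within a pool is not in these values, and the 10-month fit reads the same array as the folds above.

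Between the ovaries, all 6 genes were lower at 10 months than at 5 months, by a median log2 difference of -0.37 and a range from -0.54 for Oosp1 to -0.15 for Bmp15. Among all genes 49.8% were lower, and the median was 0.0013. This was a pair of single arrays with no test. From 5 to 10 months in the tumors the median log2 difference of the 6 genes was -2.52, against 0.0074 for all genes.

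The oocyte transcription factors named above were dim. Of 10 oocyte regulators, 5 passed the filter; 0 of these passed limma with 2 tumors against 2 ovaries, and 0 had an unadjusted p under 0.05, against 18.5% of all genes. Lhx8, a homeobox factor of the oocyte, gave 36.3 and 37.1 in the ovaries, 35.5 in the 5-month tumor and 0.288 in the 10-month tumor. Nobox gave 65.0, 41.6, 55.0 and 2.41 in the same order, and Dazl, an RNA-binding protein of germ cells, 42.9, 31.5, 48.5 and 19.3. Each signal was lowest in the 10-month tumor, but all 3 were under the array median there. The list's median log2 difference at 10 months was -0.70, and 0.011 with dim signals raised to the median, when 0 of 5 were at least 2-fold lower. The size of a fall in these dim genes could not be read. Taf4b and Foxo3 were above the median on all 4 arrays. Taf4b gave 146, 123, 293 and 84.8 in the same order. At 10 months the log2 difference was -0.53 for Taf4b and 0.24 for Foxo3. Figla was under the filter, at 18.1, 12.9, 15.5 and 4.25.

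Many other genes of the oocyte were also lower in the 10-month tumor. Of 26 genes listed, 21 passed the filter, and 15 were at least 2-fold lower in the 10-month tumor than in the 10-month ovary, against 6.00% of all genes. With dim signals raised the count was 9, against 4.05%. Their median log2 difference was 0.13 at 5 months and -1.41 at 10 months, the latter -0.78 with dim signals raised. In limma 0 of the 21 passed, and 1 had an unadjusted p under 0.05. H1f8, the linker histone of the oocyte, gave 75.9, 53.4, 76.3 and 1.36 in the 5-month and 10-month ovary and tumor, Mos, a kinase of meiotic arrest, 50.9, 32.9, 60.2 and 1.71, and Omt2a 62.5, 47.5, 68.6 and 7.88. All 3 were under the array median in the 10-month tumor, and none of their 10-month ovary signals was 2-fold above that median.

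The receptors and mediators through which GDF9 and BMP15 act showed no such fall in their median. Of 20, 19 passed the filter; 0 passed limma and 4 had an unadjusted p under 0.05, a share of 21.1% against 18.5% of all genes, and the median log2 difference was -0.0067 at 5 months and -0.0062 at 10 months. Bmpr2, the type II receptor of both ligands, gave 3080 and 2963 in the 2 control ovaries, against 3581 in the younger tumor and 2683 in the older. Pcsk6, a convertase that cleaves TGFβ-family precursors, had a log2 difference of 0.99 ± 0.21 (limma adjusted p = 0.105), Grem1, a BMP antagonist, -1.43 ± 0.55 (0.265), or -0.88 with its 5-month tumor signal of 16.1 raised to the median, and Fst, which binds activin, -1.02 ± 0.27 (0.147). Of 18 follicle cell genes known to respond to these ligands, 14 passed the filter; 0 passed limma, 5 had an unadjusted p under 0.05 (35.7%), and the median log2 difference was 0.05 at 5 months and -0.46 at 10 months. Amh, a hormone of small follicles' granulosa cells, gave 120, 69.2, 75.1 and 15.0 in the 5-month and 10-month ovary and the 5-month and 10-month tumor, the last under the array median, and Pfkp, a glycolytic enzyme, had a log2 difference of -0.63 ± 0.12 (limma adjusted p = 0.0898).

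**Figure D3:**
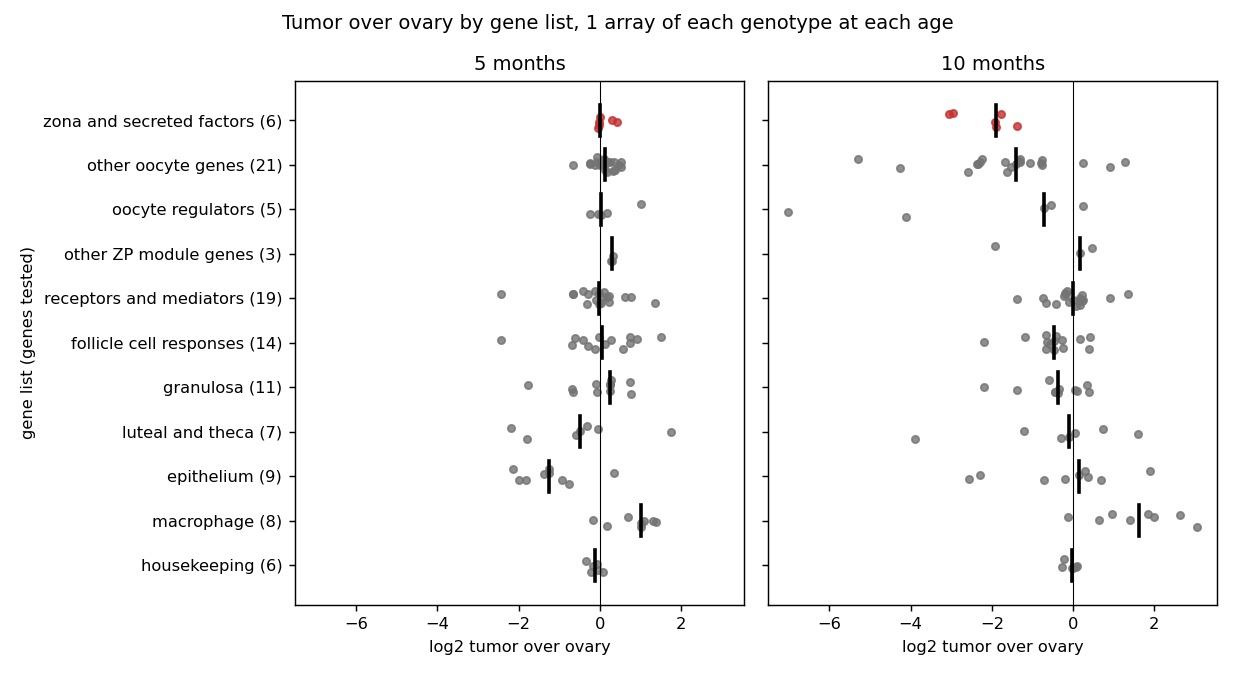
Log2 tumor over ovary at 5 and 10 months for each gene tested, by list (single arrays), from signals as measured; vertical bars mark medians. The 6 egg coat and secreted-factor genes and most other oocyte genes lie below 0 at 10 months, while the medians are near 0 for receptors and above it for macrophage genes.

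Of 11 further genes with a zona pellucida module in their protein, 3 were tested and 0 passed limma. Of these 3, 1 had an unadjusted p under 0.05 (33.3%), against 18.5% of all genes. The median log2 difference was 0.29 at 5 months and 0.17 at 10 months. Umodl1 gave 83.2, 77.6, 102 and 20.4 in the 5-month and 10-month ovary and tumor, Eng 221, 149, 269 and 207, and Tgfbr3 1629, 1642, 2054 and 1847, so of the 3 tested only Umodl1, also with dim signals raised, was at least 2-fold lower at 10 months. Of 13 granulosa genes, 11 were tested, 0 passed limma, 3 had an unadjusted p under 0.05 (27.3%), and the medians were 0.25 and -0.37. Inhbb, a subunit of inhibin B and activin, had -1.17 ± 0.41 (adjusted p = 0.226). Of the 7 luteal and theca genes tested, with medians of -0.48 and -0.099, Cyp17a1 of androgen synthesis was higher at 1.67 ± 0.13 (limma adjusted p = 0.0256), and Ptgfr and Star gave -2.83 ± 0.79 and -0.90 ± 0.36 (adjusted p = 0.160 and 0.284). Of 9 epithelial genes tested, with medians of -1.24 and 0.16, Cldn7 was lower at -2.35 ± 0.20 (limma adjusted p = 0.0256), with Cdh1 at -1.27 ± 0.36 (0.164). Muc1 was under the array median in both tumors, at 11.7 and 13.6 against 46.2 and 66.3 in the ovaries, and gave -0.62 with these raised to the median. Between single arrays at 10 months the keratin genes of the list went the other way. Krt7, Krt18, Krt19 and Krt8 gave 1.90, 0.69, 0.38 and 0.30. At 5 months Krt7 gave 0.35, but Krt18, Krt19 and Krt8 were lower in tumor, at -0.93, -1.36 and -1.24. Over both ages the 4 gave 1.12, -0.12, -0.49 and -0.47, in the order first named. Among 8 macrophage genes, all tested, C1qa was higher at 1.21 ± 0.14 (limma adjusted p = 0.0421), and 6 had an unadjusted p under 0.05. At each age 5 were at least 2-fold higher in tumor, and the median log2 difference was 1.01 and 1.62. Cd68, Lyz2 and C1qb gave 2.18 ± 0.52, 2.01 ± 0.34 and 1.51 ± 0.28 (limma adjusted p = 0.126, 0.0699 and 0.0808). Not all of the list rose as much. Between single arrays at 5 and 10 months Adgre1 gave 0.18 and 0.64, and Cd14 was lower in tumor, at -0.16 and -0.12. Of 6 housekeeping genes tested, 0 passed limma and 0 had an unadjusted p under 0.05, and the medians were -0.11 and -0.021. Tbp, Hprt and Actb gave -0.30, -0.13 and -0.080. Of 9 Y-linked genes none was tested, and their median probe signal in these female tissues was between 1.84 and 3.84 on the 4 arrays. From the 5-month to the 10-month tumor the median log2 difference was 1.34 for the epithelial genes and 0.55 for the macrophage genes, both opposite to the oocyte genes, and their part in the fall was not tested.

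The 8 genes nearest to the 6 in pattern over the 4 arrays, by the distance between centred log2 signals with signals under the array median set to it, were Omt2b, Zar1, Btg4, Apoa4, Dppa3, Gtsf1, Nlrp5 and Ednrb. The comparison was over 11260 genes, and the list is a description with no test. By the same measure Zp3, Zp2 and Gdf9 ranked 2, 3 and 9 and Oosp1 39, while Zp1 ranked 294 and Bmp15 1097, at distances of 1.08 and 1.36. Both are dim, and raising their 10-month tumor signals to the median left them little room to fall. Their ranks therefore do not show a different pattern. Zar1, Dppa3 and Nlrp5 are maternal-effect genes, Btg4 acts in the decay of maternal RNA, Gtsf1 is a germ cell gene, Apoa4 encodes an apolipoprotein and Ednrb an endothelin receptor. Omt2b was nearest, at 0.0846, with signals of 146.8, 107.7, 158.6 and 22.9 in the 5-month and 10-month ovary and tumor. Zar1 gave 184.5, 113.0, 197.8 and 45.6, Btg4 183.8, 132.2, 228.7 and 45.8, and Dppa3 204.6, 140.1, 173.6 and 43.7. In each of these 4 the 5-month tumor lay between or above the ovaries. Apoa4 gave 269.4, 208.1, 347.2 and 68.6, Gtsf1 145.6, 87.7, 131.4 and 24.6, Nlrp5 157.7, 118.1, 150.1 and 47.6, and Ednrb 291.7, 247.7, 283.4 and 86.3.

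**Figure D4:**
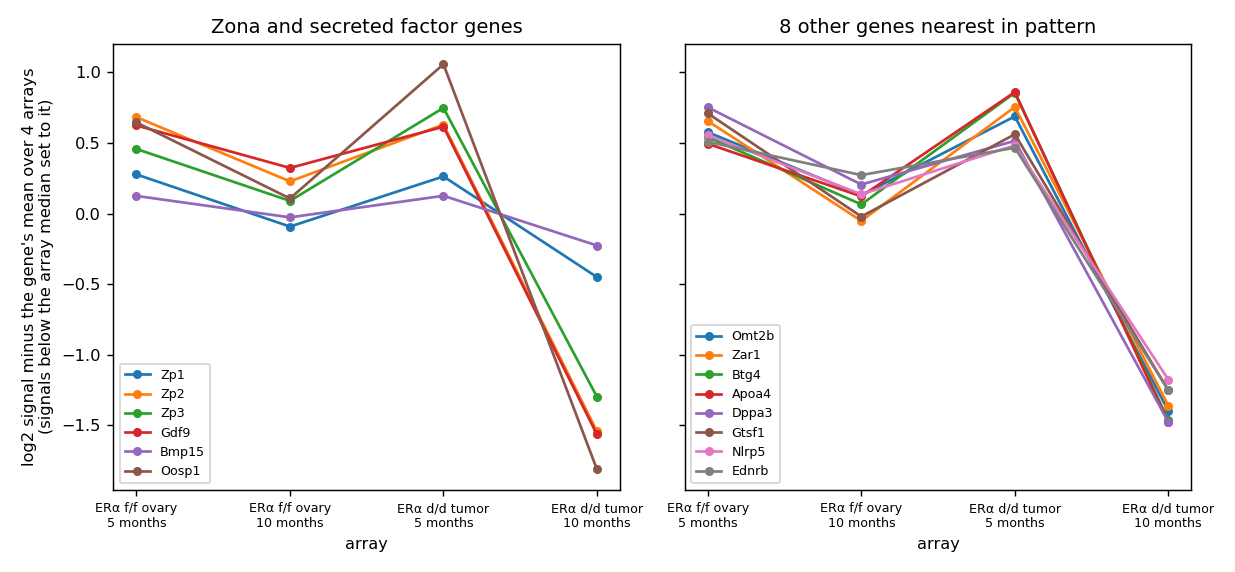
Log2 signals over the 4 arrays, each centred on its gene's mean, for the 6 genes and the 8 nearest to them, with signals below the array median raised to it. All are lowest at the 10-month tumor, where Zp1 (-0.45) and Bmp15 (-0.23) fall little since they reach the raised level.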

How the data were processed

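RNA of 3 pooled mice per array was hybridised to Affymetrix mouse arrays. Per the submitters' notes, signals come from MAS5 (Affymetrix Expression Console 1.1). The authors deposited 1 linear signal intensity per probe set and array, scaled to 1 level; with no counts, precision rests on the number of arrays. Of 45101 probe sets, 64 were controls, 34945 carried 1 gene symbol, 932 several (left out) and 9160 none; 34741 were matched by gene identifier to RefSeq (GRCm38.p6) for current symbols, which gave 18193 genes.

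Intensities were log2 transformed without a pseudocount. Probe sets had to exceed the array median on 2 or more of 4 arrays, and the brightest one stood for a gene. Tumor and ovary were compared with limma 3.58.1 in R 4.3.3 (trended eBayes, 2 residual and 2.94 prior degrees of freedom), with Benjamini-Hochberg adjustment at 0.05 over 11748 genes; the step was tested on simulated data. P-values measure the spread between these pools and ages. A fold at 1 age is between single arrays. Where a signal lay under the median of the 10-month tumor array, a fold was computed against that median; fitted log2 differences use the signals as measured. The genes named, besides the 6 and Esr1, were those of each list past the threshold and the 3 of largest mean log2 difference, and the 8 nearest in pattern; others were chosen after their values were seen. The genes and the lists were chosen with earlier results of these data known. The alternatives were other scalings, a pseudocount of 32, a floor at the median, other filters, other probe set rules, an age block, an untrended limma fit, a Student test as in the study's statistics, and leaving out each array. List genes with no single-symbol probe set, and proteins, were not analysed here. Python 3.11.15 and matplotlib 3.10.9 drew the figures.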

Additional observations from a re-analysis of the deposited data

Results flagged for a closer look

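For 3 of the genes the tumor over ovary difference had opposite signs at the 2 ages, and the difference between the ages was not tested, since each is 1 array against 1. The 10-month log2 tumor over ovary minus the 5-month one was -1.68 for Zp3, -3.06 for Bmp15 and -2.33 for Oosp1. For Bmp15 the 5-month difference was only 0.0012 and the 10-month tumor signal lay under the array median; with that signal raised to the median, the value was -0.20, so its size is not measured.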

How the results depend on the processing

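Over 11 alternatives other than leaving out an array, none of the 63 values of the 6 genes passed (limma or Student adjusted p from 0.413 to 0.895). Direction was kept in all 63, but other filters, fits and tests leave the log2 difference as it was. It could change only under other scalings, the pseudocount, the floor and, for Bmp15, averaged probe sets. Sizes shrank where signals were dim: with a floor at the array median the log2 difference was -0.099 for Bmp15, -0.19 for Zp1 and -0.91 for Zp2, and with probe sets averaged it was -0.47 for Bmp15. Leaving out each array in turn gave a log2 tumor over ovary difference from -1.95 to 0.17 for Zp1, -3.18 to 0.17 for Zp2, -1.57 to 0.47 for Zp3, -2.04 to 0.14 for Gdf9, -3.13 to 0.077 for Bmp15 and -2.19 to 0.68 for Oosp1. All 6 stayed lower without the 5-month tumor, and the direction turned in all 6 without the 10-month tumor, so that 1 array sets the fall. With age as a block none of the 6 passed, and 33 genes passed in all.

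The count of genes called was 208, against 317 with a pseudocount of 32, 323 with a floor at the array median, 106 with probe sets averaged by gene, 313 with probe sets one by one, 78 without the trend of the variance and 0 by the Student test, where 1561 had an unadjusted p under 0.05. Leaving out an array gave from 0 (without either ovary, with 933 and 863 genes at an unadjusted p under 0.05) to 2501; without the 10-month tumor it was 1800. The median log2 difference of the 6 genes at 10 months was -1.24 with the pseudocount and -1.58 with the floor. Only 3 of the 6 genes were above the median on all 4 arrays: under that filter the median at 5 months was 0.29 and the count of genes at least 2-fold lower at 10 months was 3, an alternative added after the data were seen. The labels give no replicate numbers, and the fit with age by title as a block is the paired one. The causes of these shifts were not tested, beyond fewer genes under the stricter filter.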

Other observations

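Of the oocyte genes listed, some did not fall in the 10-month tumor. Ooep, a gene of the subcortical maternal complex, gave signals of 394 and 422 in the control ovaries at 5 and 10 months, against 506 and 499 in the tumors. Bmp6, a ligand of the BMP group, gave 110, 65.0, 101 and 122 in the same order. Kit, the receptor of KIT ligand, gave 315, 229, 199 and 558, and was highest in the 10-month tumor. Foxo3, a factor that holds primordial follicles at rest, gave 512, 528, 522 and 622. Each value is from a single array of pooled tissue, with no test. Whether these signals came from oocytes was not tested.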
